A study of Mus musculus with 4 samples.

Results

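The mRNAs described here are the 10 genes of MHC class I antigen processing and the immunoproteasome, namely B2m, H2-K1, H2-D1, Tap1, Tap2, Tapbp, Psmb8, Psmb9, Psmb10 and Nlrc5. They were chosen by name, and 9 of the 10 were found among the 7000 genes listed by the authors for mouse liver RNA-Seq. The libraries came from livers of FVB/N mice that were kept for 6 weeks after weaning on a diet with 0 ppm added Se (0 Se, mice 1 and 2) or 0.1 ppm added Se as sodium selenite (0.1 Se, mice 4 and 5). All 4 mice were wild-type males, and no transgene or deletion was used. For each gene the level used here is the authors' mean over the 4 libraries, in CPM, read counts scaled to the size of the library, so the 2 diets are pooled in every value below. Values of single mice were not part of it. Total counts per library, the spread between mice and the difference between the diets were therefore not analysed here, and no level carries an SD. Where levels of different genes are compared, CPM was divided by the length of the mRNA in kilobases (CPM per kb), because long mRNAs give more reads. As whole liver was sequenced, a higher level in a cell type and a larger share of that cell type cannot be told apart.

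MHC class I molecules carry short peptides from inside the cell to its surface, where CD8+ T cells inspect them. The peptides are cut by the proteasome, pumped into the endoplasmic reticulum by the TAP transporter, and loaded onto a heavy chain paired with β2-microglobulin. Interferon-γ is known to induce the pathway, including 3 proteasome subunits that take the place of the constitutive catalytic subunits in newly made proteasomes. Hepatocytes are known to carry little class I in the resting liver, whereas endothelial and Kupffer cells carry more.

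Of the 10 genes, 7 lie on chromosome 17 of mm9 (NCBIM37), within 1351.6 kb of the MHC. From 34318932 to 34353266, Psmb9, Tap1, Psmb8 and Tap2 form a cluster of 34.3 kb. Psmb9 is on the minus strand and Tap1 on the plus strand, and the 5′ ends of their gene models overlap by 200 bases. Psmb8 begins 495 bases after the end of Tap1. Tapbp lies at 34052844 to 34066235, H2-K1 at 34132962 to 34137278 and H2-D1 at 35399675 to 35404444 of the same chromosome. B2m is on chromosome 2 from 121973422 to 121978819, Psmb10 on chromosome 8 from 108459628 to 108462292, and Nlrc5 on chromosome 8 from 96996663 to 97051172.

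**Figure D1:**
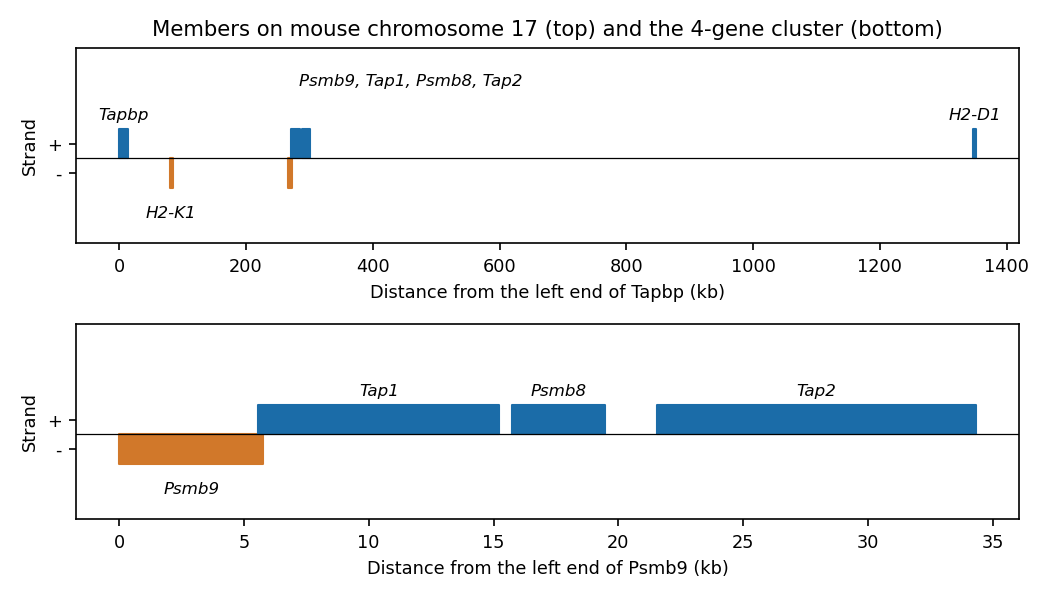
Positions of the members on chromosome 17 in kb from the left end of Tapbp (top) and of the cluster in kb from the left end of Psmb9 (bottom), with plus-strand genes above and minus-strand genes below the line. The 7 members span 1351.6 kb, and 4 of them lie within 34.3 kb, where the 5′ ends of Psmb9 and Tap1 overlap.

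The class I heavy chains H2-K1 and H2-D1 are so alike that their sequences bear on every value given for them. Their coding sequences, of 1110 and 1098 bases in the mm9 annotation, were identical at 91.1% of 1080 aligned bases. H2-Q10, a secreted class I molecule made by hepatocytes, matched H2-K1 at 87.8% and H2-D1 at 89.7% of aligned coding bases. Stretches of 30 coding bases are shown to let the 3 mRNAs be compared. The first is a stretch in which they are most alike, the second a stretch in which H2-K1 and H2-D1 differ most. Among equal stretches, the one nearest the start of the H2-K1 coding sequence was taken. The stretches were read from the annotated transcripts, 5′ to 3′ in the sense of the mRNA. Capitals mark bases that are not the same in all 3. The first stretch lies in exon 2, at chr17:34136826-34136855 for H2-K1 (minus strand), chr17:35400417-35400446 for H2-D1 and chr17:35607414-35607443 for H2-Q10 (both plus strand).
H2-K1: agttcgtgcgcttcgacagcgacgcggaga
H2-D1: agttcgtgcgcttcgacagcgacgcggaga
H2-Q10: agttcgtgcgcttcgacagcgacgcggaga
The second stretch lies in exon 3, at chr17:34136293-34136322 for H2-K1 (minus strand), chr17:35400953-35400982 for H2-D1 and chr17:35607940-35607969 for H2-Q10 (both plus strand).
H2-K1: ggagcagGCtggtgAAgcagagAGACTcaG
H2-D1: ggagcagAGtggtgCTgcagagCATTAcaA
H2-Q10: ggagcagGCtggtgCTgcagagTATTAcaG
In the first stretch the 3 genes are identical, and in the second H2-D1 differs from H2-K1 at 10 of 30 bases and H2-Q10 at 7. Exons 2 and 3 encode the domains that form the peptide groove.

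B2m, which encodes the light chain β2-microglobulin common to all class I molecules, had the highest level of the 9 listed members. Its mean was 1841 CPM on an mRNA of 858 bases, or 2146 CPM per kb, and 0.257% of the listed genes were higher. H2-K1 had a mean of 459 CPM, or 279 CPM per kb, and H2-D1 306 CPM, or 176 CPM per kb. The classical heavy chains lay at percentiles 97.2 and 95.7 of the listed genes. Per kb, H2-K1 was at 1.58 times H2-D1, and B2m at 4.72 times the sum of both, or 2.75 times with the uniquely alignable length of each mRNA, that is the part of an mRNA found in no other mRNA. B2m took 65.8% of the summed mean CPM of the 9 members, the 2 heavy chains 27.3% and the other 6 members 6.93%.

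**Figure D2:**
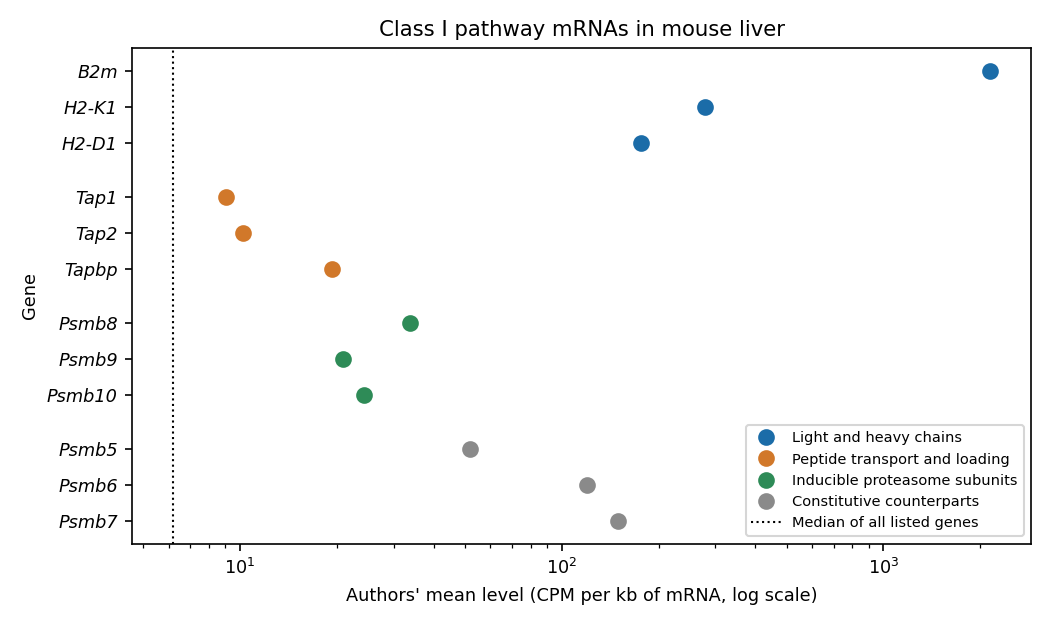
Authors' mean level over the 4 libraries (CPM per kb, log axis) for the 9 listed members and the 3 constitutive proteasome subunits, each gene as 1 point with no error bar, and the median of all listed genes as a dotted line. All 9 members lie to the right of the median of 6.19 CPM per kb, from Tap1 at 9.01 to B2m at 2146, and each inducible subunit lies to the left of its constitutive counterpart.

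Other class I heavy chains were also listed. Of the 23 further class I and class I-like genes considered, 7 were found, of which H2-Q10 was at 525 CPM per kb and H2-Q4 at 27.8. H2-T23, the mouse Qa-1 molecule recognized by NK cell receptors, was at 13.0 CPM per kb, H2-Q1 at 3.05 and H2-M3, which presents formylated peptides, at 2.26. H2-Q10 was thus at 1.88 times the level of H2-K1 and made up 51.2% of the summed level of the 7 listed H2 class I heavy chains, against 44.3% for H2-K1 and H2-D1 together. B2m was at 2.09 times that sum of 1026 CPM per kb, and at 1.29 times with the uniquely alignable lengths. Class I genes that were not listed have no known level here, so this sum and the shares leave them out. Hfe, a class I-like regulator of hepcidin that also binds β2-microglobulin, was at 26.4 CPM per kb, and Mr1, which presents vitamin B metabolites, at 4.48.

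Only unique alignments were counted, so the share of each mRNA that no other mRNA holds sets how many of its reads could be counted. This share was computed over all windows of 50 bases, the read length, against the mRNAs of 20281 genes with up to 2 mismatches on either strand. In H2-K1, 40.6% of 1556 windows were also found in another gene's mRNA, and in H2-D1 43.5% of 1696 windows. The genes that shared most with H2-K1 were H2-Q4 with 26.5% of its windows and H2-D1 with 25.9%. H2-Q10 shared 32.4% of its windows and H2-Q4 64.6%. Scaled to the uniquely alignable length instead, H2-K1 was at 470 CPM per kb, H2-D1 at 312, H2-Q10 at 776, H2-Q4 at 78.5 and H2-T23 at 20.6. On this scale H2-K1 and H2-D1 together came to 781 CPM per kb, slightly above H2-Q10, whereas with the listed lengths they were at 455, below H2-Q10. B2m, Psmb8 and Psmb10 shared 0 windows.

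**Figure D3:**
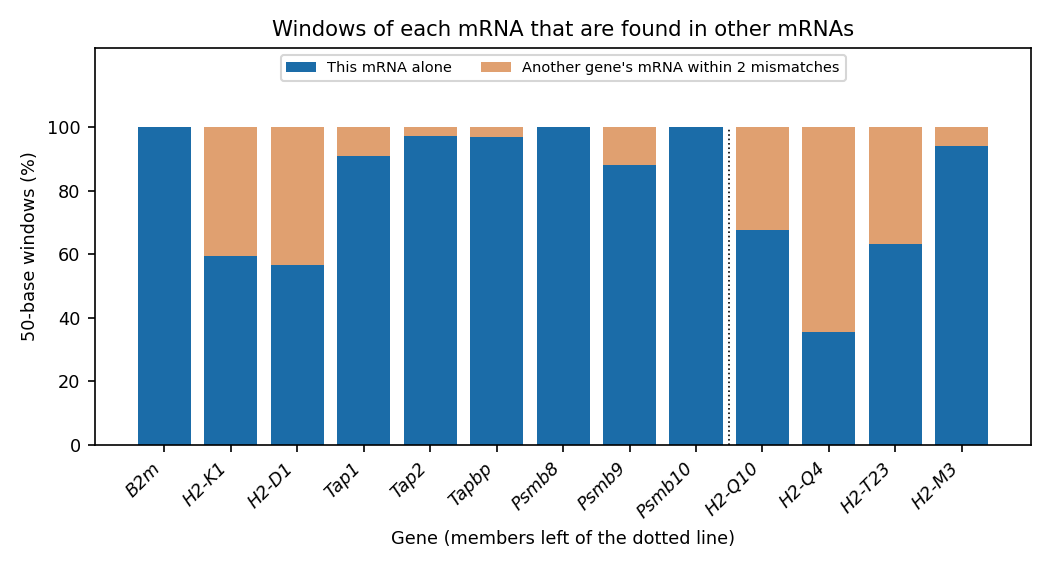
Percent of 50-base windows of each annotated mRNA that occur in that mRNA alone (blue) or also in another gene's mRNA within 2 mismatches (orange), for the 9 listed members and, right of the dotted line, 4 other class I heavy chains. H2-K1 and H2-D1 share 40.6% and 43.5% of their windows, and B2m, Psmb8 and Psmb10 share none.

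**Figure D4:**
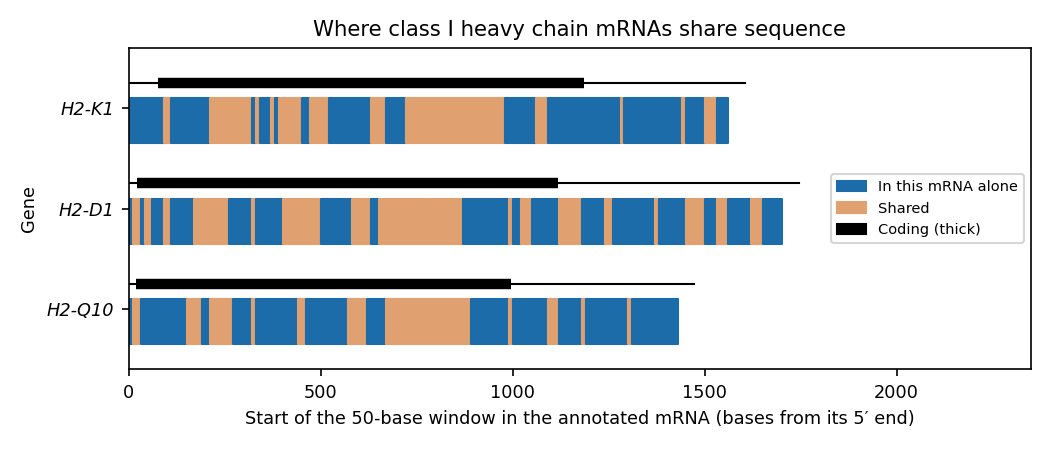
Windows of 50 bases along the H2-K1, H2-D1 and H2-Q10 mRNAs, sampled every 10 bases, in blue where found in that mRNA alone and in orange where shared, with the mRNA drawn above as a line and its coding part as a thick bar. Shared windows alternate with unique ones and form the longest run in the latter part of the coding sequence of each mRNA.

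The reads were aligned to RefSeq mRNA sequences obtained for mm9, the assembly of C57BL/6J, whereas the mice were FVB/N. These strains carry different H2 haplotypes, and H2-K1 and H2-D1 are among the most variable genes between haplotypes. Reads of FVB/N alleles with more than 2 mismatches would not have been counted. The part of this in the levels of H2-K1, H2-D1 and the other H2 genes was not tested. The shared windows and uniquely alignable lengths of all H2 genes come from annotated reference transcripts, not from FVB/N sequences. Whether FVB/N reads of an H2 gene aligned to another H2 gene was not tested. How far the values and ratios on the uniquely alignable length would change with FVB/N sequences was also not tested.

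Tap1 and Tap2 encode the 2 subunits of the TAP peptide transporter and were the members with the lowest levels per kb. Tap1 had a mean of 26.6 CPM, or 9.01 CPM per kb, and Tap2 25.5 CPM, or 10.2 CPM per kb. The subunits of this heterodimer were thus at a ratio of 0.880, and their order turned with the choice of length: with the longest annotated transcript Tap2 was at 7.41 CPM per kb, below Tap1, as it also was in CPM. Both were above the listed median of 6.19 CPM per kb, at percentiles 59.9 and 63.1, but among listed genes of at least 5 CPM Tap1 was at percentile 49.7 and Tap2 at 53.6. Tap2 shared 2.80% of its windows, all with Tap1. Tap1 shared 8.88% of its windows with other mRNAs, 3.27% with Tap2 and most with Psmb9 across the overlap of their 5′ ends. The libraries were stranded, but whether strand was used in counting is not given in the sources used here.

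Tapbp encodes tapasin, which tethers heavy chains to TAP and edits the bound peptide. Its mean was 53.0 CPM, or 19.3 CPM per kb, 2.14 times that of Tap1 and 1.88 times that of Tap2. Tapbpl, a tapasin relative that edits peptides away from TAP, was at 12.3 CPM per kb. The general chaperones of the loading complex stood far higher, with Calr (calreticulin) at 596 CPM per kb, Canx (calnexin) at 188 and the oxidoreductase gene Pdia3 at 132, which is 6.87 times Tapbp. Erap1, which trims peptides in the endoplasmic reticulum, was at 51.2 CPM per kb, and Bcap31, a cargo receptor for class I, at 109. All 7 genes of this list were listed, with Lnpep the lowest at 9.72 CPM per kb, between Tap1 and Tap2. All 7 were above the listed median, and their median was 109 CPM per kb.

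Psmb8, Psmb9 and Psmb10 encode the inducible catalytic subunits of the immunoproteasome, known as LMP7, LMP2 and MECL-1. Psmb8 had a mean of 41.3 CPM, or 33.8 CPM per kb, and was the highest of the 3. Psmb10 followed with 30.7 CPM, or 24.2 CPM per kb, and Psmb9 with 16.8 CPM, or 20.9 CPM per kb. In this order they lay at percentiles 84.5, 80.1 and 77.6 of the listed genes.

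Each inducible subunit was at a lower level than the constitutive subunit whose place it takes. Psmb5, the constitutive chymotrypsin-like subunit, was at 52.0 CPM per kb, so that Psmb8 stood at 0.651 of it. Psmb6 was at 120 CPM per kb and Psmb9 at 0.174 of it. Psmb7 was at 149 CPM per kb and Psmb10 at 0.162 of it. Summed over the 3 pairs, the inducible subunits were at 78.9 CPM per kb and the constitutive ones at 322, a share of 19.7% for the inducible subunits. Without length scaling, Psmb8 came to 0.913 of Psmb5 in CPM. All 14 listed constitutive subunits of the 20S core (Psma1 to Psma7 and Psmb1 to Psmb7), a set taken by symbol after these values had been seen, were above all 3 inducible subunits. They ran from 52.0 CPM per kb for Psmb5 to 165 for Psma4.

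The coding sequences of the pairs differ enough that reads could be assigned. Psmb8 and Psmb5 were identical at 64.7% of aligned coding bases, Psmb9 and Psmb6 at 63.4%, and Psmb10 and Psmb7 at 60.9%, and Psmb8, Psmb10 and the 3 constitutive subunits shared 0 windows with any other mRNA. Psmb9 shared 11.7% of its windows, all with Tap1.

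The activator PA28, which opens the proteasome gate and is induced together with the immunoproteasome, was represented by Psme1 at 77.1 CPM per kb and Psme2 at 79.9. The genes of these partner subunits were at a ratio of 0.965. Of the proteasome assembly chaperones, Pomp was at 140 CPM per kb, and Psmg2, Psmg3 and Psmg4 were far lower, from 10.3 to 14.2. Of the cytosolic peptidases that trim or destroy peptides, Lap3 was at 145 CPM per kb, Blmh at 21.5, Tpp2 at 17.2, Npepps at 3.89 and Thop1 at 3.38.

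Nlrc5, the transactivator of class I genes, was not listed, and 0 of its 3 RefSeq synonyms were listed. The authors' filter on expression limited which genes could be listed. The list also lacks some expressed genes, such as the hepatocyte genes Alb, Ttr and Cps1. No level of Nlrc5 therefore follows from its absence. Of the factors that act with it or upstream of it, Irf1 was at 19.9 CPM per kb, Irf9 at 12.7 and Stat2 at 7.85. Rfx5 and Rfxap, subunits of the RFX complex that binds class I promoters, were at 2.39 and 3.01 CPM per kb.

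The tissue label was checked against marker genes. All 5 listed of 8 hepatocyte markers were at or above 595 CPM per kb, with Apoa1 at 7619. The 7 listed of 9 Kupffer cell and macrophage marker symbols ran from 5.15 to 74.8 CPM per kb (Clec4f). Of these symbols, Adgre1 and Emr1 name the same gene, listed as Emr1. The 5 listed of 7 sinusoidal endothelial markers ran from 7.87 to 76.9 (Clec4g). The 6 stellate cell markers ran from 1.67 to 98.3 CPM per kb (Dcn). Lymphocyte markers were at the low end where listed, with Cd4 at 0.782 CPM per kb as the only one of 8 T and NK cell markers and Cd22 at 0.550 as the only one of 5 B cell markers, and 0 of 4 cholangiocyte markers were listed. Markers that were not listed, among them the hepatocyte genes Alb, Ttr and Cps1, have no known level here. Their absence therefore says nothing about the share of a cell type. Which cells the class I mRNAs came from was not tested.

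Over all 9 listed members, the median level was 24.2 CPM per kb, against 6.19 over all 7000 listed genes, and 7 of the 9 were in the upper 25%. This count was 4 of 9 among listed genes of at least 5 CPM, and 4 of 9 with CPM in place of CPM per kb. All listed genes, members included, had already passed the authors' filter on expression. As the list also lacks some expressed genes, such as Alb, Ttr and Cps1, these counts hold within the list only. The levels covered a 238-fold range from Tap1 to B2m. A step of 5.21 times separated H2-D1 from the next member, Psmb8, and the 6 members from Psmb8 down to Tap1 lay within 3.75 times of each other. With no values for single mice, whether neighbours in this order differ beyond their spread was not tested.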

How the data were processed

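Liver RNA of 4 mice was sequenced by the authors (50-base single reads, stranded libraries, ribosomal RNA removed), aligned with Bowtie to mm9 RefSeq mRNAs (longest isoform, unique alignments, up to 2 mismatches) and analysed with edgeR. No versions were stated. The authors deposited 1 value per gene on the log2 scale, the log2 mean CPM over the 4 libraries, which was converted to CPM as 2 raised to that value and divided by the deposited mRNA length. This value depends on the authors' normalization and prior count, which are not stated, so low levels are the least certain. The 3 other deposited columns hold the authors' own comparison of the diets (log2 fold change, p-value, FDR) and were not used. With 0 columns for single mice, the planned edgeR test, its alternatives and the omission of each mouse could not be run, and depth per library is unknown.

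Members were found by exact symbol. The members and lists were chosen with earlier results of these data known. Named genes are the 10 members and the listed genes of the pathway and marker lists; others are named as chosen after their values were seen. Positions of genes are those of the gene records of GENCODE vM1 (NCBIM37, the assembly of mm9), where Nlrc5 is typed as lincRNA. For each listed gene, the transcript used was the model with a complete coding sequence closest to the listed length. Shared windows and coding identity (global alignment, gap opening -5, extension -1) were computed from GENCODE transcripts, 1 per gene with a curated RefSeq mRNA. The window search was tested on simulated data. Python 3.11.15, numpy 2.4.6, pandas 2.3.3, Biopython 1.88 and matplotlib 3.10.9 were used.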

Additional observations from a re-analysis of the deposited data

How the results depend on the processing

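The order B2m, H2-K1, H2-D1 at the top was the same with CPM, with the longest annotated transcript as length and with the uniquely alignable length, the last chosen after seeing the data. Without length scaling the median member was at 41.3 CPM, with Tapbp next after these 3 and Psmb9 last. The median percentile of 80.1 came to 75.0 among listed genes of at least 5 CPM, and to 71.1 on CPM, and the 7 members in the upper 25% came to 4 in both cases. The summed inducible to constitutive ratio of 0.245 was 0.283 on CPM, 0.186 with the longest transcripts and 0.254 with the uniquely alignable length, the last 2 chosen after seeing the data. Other values that moved by over 1.5 times, apart from the change of unit to CPM, were H2-K1, H2-D1, H2-Q4 and H2-T23 with the uniquely alignable length (470, 312, 78.5 and 20.6 CPM per kb), B2m over H2-K1 and H2-D1 (2.75) and over all listed H2 heavy chains (1.29, with H2-Q1 at its listed length) on that scale, Psmb9 with the longest transcript (12.5 CPM per kb, and 0.0798 of Psmb6), and the percentile of Psmb9 on CPM (47.0). H2-Q10 over H2-K1 and H2-D1 together turned from 1.15 to 0.993 with the uniquely alignable length. The annotated models of Tap2 (3442 bases), Psmb8 (1628) and Psmb9 (1340) are longer than the listed mRNAs (2490, 1223 and 806), so their shares of windows are those of the longer models. The uncertainty from the spread between mice and from depth is unknown. No paired analysis was possible because the values used come from no test and carry no mouse numbers.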
